A study of Mus musculus with 6 samples.

Results

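The genes described here encode subunits of the Polycomb repressive complexes, measured in mouse embryos of embryonic day 16.5 in the lateral ganglionic eminence (LGE), the part of the ventral forebrain that forms striatal and olfactory bulb neurons. They are Ezh1, Ezh2, Eed, Suz12, Jarid2 and Phf19 of complex 2 (PRC2) and Ring1, Rnf2, Bmi1 and Pcgf2 of complex 1 (PRC1). The 10 members were taken by symbol from a table of 21286 genes, and all 10 were found and tested. The first group is the Dlx1/2 -/- mutant, which lacks the homeobox genes Dlx1 and Dlx2 in the whole animal, and the second is wild type littermates, with 3 libraries each. Mice of both groups had a mixed background of C57BL/6J, 129S6 and CD1, and their LGE was dissected, frozen and sequenced as bulk RNA. Whether every library is a separate embryo is not stated in the labels, and p-values therefore measure only how far these libraries vary, which may be technical.

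Polycomb proteins keep developmental genes silent in cells that do not use them. PRC2 writes methyl groups on lysine 27 of histone H3, with Ezh1 or Ezh2 as the enzyme and Eed and Suz12 as the core that the enzyme needs. PRC1 ubiquitinates histone H2A through the ring finger proteins Ring1 and Rnf2, each paired with a Pcgf protein such as Bmi1 or Pcgf2. In the developing brain Ezh2 is known as the enzyme of dividing progenitors, while Ezh1 is the form that remains in neurons.

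Total counts were 15670067 to 16196974 in mutant libraries and 10711630 to 16588359 in wild type libraries. The labels were checked on the targeted genes, for which Dlx1 had 109.3 to 137.6 CPM (counts scaled to a common library total) in mutant and 831.4 to 898.4 CPM in wild type libraries, and Dlx2 had 15.5 to 18.7 CPM in mutant and 418.8 to 470.7 CPM in wild type libraries. Of 15326 genes tested with edgeR's quasi-likelihood test, 11.2% were higher and 12.8% lower in the mutant at a Benjamini-Hochberg adjusted p below 0.05, which is 24.0% in either direction. Of 10 markers of the LGE 2 were higher and 5 lower, with a summed level of 1930 to 2653 CPM in mutant and 3480 to 4053 CPM in wild type libraries.

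Among the 10 Polycomb members, 1 was higher and 1 lower in the mutant, or 20% against the 24.0% of all tested genes, a share near the background. Ezh1 was the member that fell and Eed the member that rose, each by less than 1.5-fold. The median log2 fold change of the members was −0.04 (all tested genes 0.00), and the median of its absolute value was 0.10 (all tested genes 0.19). The largest absolute change, that of Ezh1, was exceeded by 32.2% of all tested genes. The mutant and wild type values did not overlap for 2 of the 10 members, or 20%, against 41.9% of all tested genes. The tested genes were not matched to the members for level, so these medians and shares do not compare genes of like level. In bulk tissue, fewer cells that make a transcript and less of it per cell cannot be told apart.

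The promoters of the called members are shown because their transcripts moved in opposite directions. Each runs from 250 bases before to 50 bases after the transcription start in RefSeq on GRCm38.p6, written 5′ to 3′ on the strand of the gene, with the bases after the start in capitals.
Ezh1 (chr11:101226414-101226713, minus strand): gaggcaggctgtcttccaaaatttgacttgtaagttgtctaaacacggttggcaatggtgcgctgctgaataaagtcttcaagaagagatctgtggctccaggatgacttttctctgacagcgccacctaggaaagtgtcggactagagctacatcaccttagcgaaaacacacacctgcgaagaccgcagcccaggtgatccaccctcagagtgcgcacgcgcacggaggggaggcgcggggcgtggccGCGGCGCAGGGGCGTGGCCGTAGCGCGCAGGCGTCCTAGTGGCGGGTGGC
Eed (chr7:89980927-89981226, minus strand): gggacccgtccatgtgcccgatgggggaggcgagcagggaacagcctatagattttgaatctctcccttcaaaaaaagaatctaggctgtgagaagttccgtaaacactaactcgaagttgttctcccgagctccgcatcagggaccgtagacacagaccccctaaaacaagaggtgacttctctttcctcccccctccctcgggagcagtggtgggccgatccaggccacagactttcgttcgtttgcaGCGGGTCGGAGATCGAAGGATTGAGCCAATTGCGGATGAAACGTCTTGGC

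RefSeq windows were found for all 10 members, 11 windows in all since Jarid2 has a pair of starts. They held 10 to 41 CpG dinucleotides each, against a median of 7 over 32851 mouse promoter windows of the same length. The Eed window held 17 and the Ezh1 window 23. An E2F-type motif (TTTCCCGC, TTTCGCGC, TTTGCCGC or TTTGGCGC, on either strand) was found in the windows of Ezh2, Suz12 and Phf19 and in 2.26% of all windows. The homeodomain core TAATTA, which is its own reverse complement, was found in the Phf19 window alone among the members and in 5.29% of all windows. Neither motif was found in the windows of Ezh1 or Eed. Every E2F-type motif above holds a CpG, and the share over all windows was not matched for CpG content. The E2F-type matches are shown with 10 bases on each side and the match in capitals, because E2f1 and E2f2, genes of E2F factors that drive entry into S phase, were among the called genes.
Ezh2 (chr6:47595010-47595037, minus strand): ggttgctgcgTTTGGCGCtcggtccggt
Suz12 (chr11:79992877-79992904, plus strand): gacccctcatTTTCCCGCgaattcagtt
Phf19 (chr2:34914167-34914194, minus strand): tcaataattcGCGGGAAAacgcgaaaaa

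In Ezh2 the match began at base 4 after the start, in Suz12 at 219 and in Phf19 at 208 bases before it. E2f1 was at 51.1 ± 1.57 CPM in mutant and 37.7 ± 1.70 CPM in wild type libraries (mean ± SD, n = 3 each), and E2f2 at 46.9 ± 2.62 CPM in mutant and 29.9 ± 4.17 CPM in wild type. None of the 3 members with a match was called. A match describes the letters in the window and says nothing about binding.

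Ezh1, the PRC2 enzyme that remains in cells that no longer divide, was lower in the mutant. It lies on GRCm38 at chr11:101191115-101226463 on the minus strand (ENSMUSG00000006920). Its level was 30.1, 32.1 and 32.5 CPM in mutant replicates 1 to 3, against 37.8, 39.6 and 41.0 CPM in wild type replicates 1 to 3. Every mutant library lay below every wild type library, and the highest mutant value was 32.5 against a lowest wild type value of 37.8 CPM. The log2 fold change was −0.32 ± 0.07 (SE), a 1.25-fold fall, with a 95% interval of −0.48 to −0.16 and adjusted p = 0.0127 (edgeR). In the authors' deposited table its p-value was 0.00990. It was called lower without any single library, but not without replicate 3 of both groups (adjusted p = 0.0722 at a log2 fold change of −0.31).

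Ezh2, the main enzyme of PRC2 in dividing progenitors, did not pass the test. It had 218.0, 212.7 and 200.3 CPM in mutant and 240.9, 215.1 and 217.4 CPM in wild type libraries. The groups overlapped, with wild type replicate 1 highest and mutant replicate 3 lowest. Its log2 fold change was −0.09 ± 0.06 (adjusted p = 0.297), and the 95% interval ran from 0.85-fold to 1.03-fold of the wild type level. A rise of Ezh2 beyond 1.03-fold lay outside this interval. The long noncoding RNA gene Gm26625 on the opposite strand shares 174 bases of exon with Ezh2, 2.61% of the exon bases of Ezh2.

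Eed, the subunit that binds methylated lysine 27 and is needed for enzyme activity, was higher in the mutant. It lies at chr7:89954654-89980983 on the minus strand (ENSMUSG00000030619). Its level was 48.6, 46.3 and 51.0 CPM in mutant, against 42.2, 39.96 and 39.9 CPM in wild type libraries. All mutant values lay above all wild type values. The log2 fold change was 0.26 ± 0.07 (SE), a 1.20-fold rise, with a 95% interval of 0.11 to 0.41 and adjusted p = 0.0250 (edgeR). In the authors' deposited table its p-value was 0.0399. The call was lost without mutant replicate 1, mutant replicate 3, wild type replicate 2 or wild type replicate 3, at log2 fold changes of 0.22 to 0.26 and adjusted p of 0.0701 to 0.0797, and without replicate 3 of both groups (log2 fold change 0.21). An antisense gene, E230029C05Rik, shares 261 bases of exon with Eed, 6.82% of the exon bases of Eed. It had 34 reads over mutant and 23 over wild type libraries, where Eed had 2340 over mutant and 1717 over wild type libraries. The strand setting of the counting is unknown here, so reads of the pair cannot be told apart where they overlap.

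Suz12, the zinc finger subunit that holds PRC2 together, stood at a pair of levels in each group. Mutant replicates 1 to 3 had 79.6, 75.7 and 140.4 CPM, and wild type replicates 1 to 3 had 80.3, 71.3 and 151.8 CPM. Replicate 3 was thus high in mutant and in wild type alike, and the groups overlapped fully. The highest library was 1.85 times the lowest within the mutant group and 2.13 times within wild type. Among 8422 tested genes with a mean of at least 20 CPM, 138 had such a ratio of 1.5 or more in both groups, and Suz12 was the only Polycomb member among them. Over these 8422 genes the median of the ratio, taken in the group where it was smaller, was 1.08. The log2 fold change of Suz12 was −0.04 ± 0.32 (adjusted p = 0.947), with an interval from 0.59-fold to 1.66-fold. This fold change ran from −0.39 to 0.38 over the alternatives that leave out libraries, so no direction can be given. Without replicate 3 of both groups it was 0.04. The long noncoding RNA gene Gm26563 on the opposite strand shares 178 bases of exon with Suz12, 3.6% of the exon bases of Suz12. Reads per gene do not show which transcripts made the difference between libraries, and the cause was not tested.

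Jarid2 and Phf19 are accessory subunits of PRC2, which help it to find or hold its target sites. Jarid2 had 115.4, 129.8 and 141.7 CPM in mutant and 150.4, 128.5 and 121.1 CPM in wild type libraries. The spread within each group was wider than the difference of their means, and the log2 fold change was −0.05 ± 0.10 (adjusted p = 0.781). Phf19 was the rarest member, with 9.51, 8.92 and 8.18 CPM in mutant and 11.5, 9.88 and 9.48 CPM in wild type libraries. The groups overlapped narrowly, with mutant replicate 1 above wild type replicate 3, and the log2 fold change of −0.20 ± 0.12 did not pass the test (adjusted p = 0.264, 95% interval 0.71-fold to 1.05-fold).

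**Figure D1:**
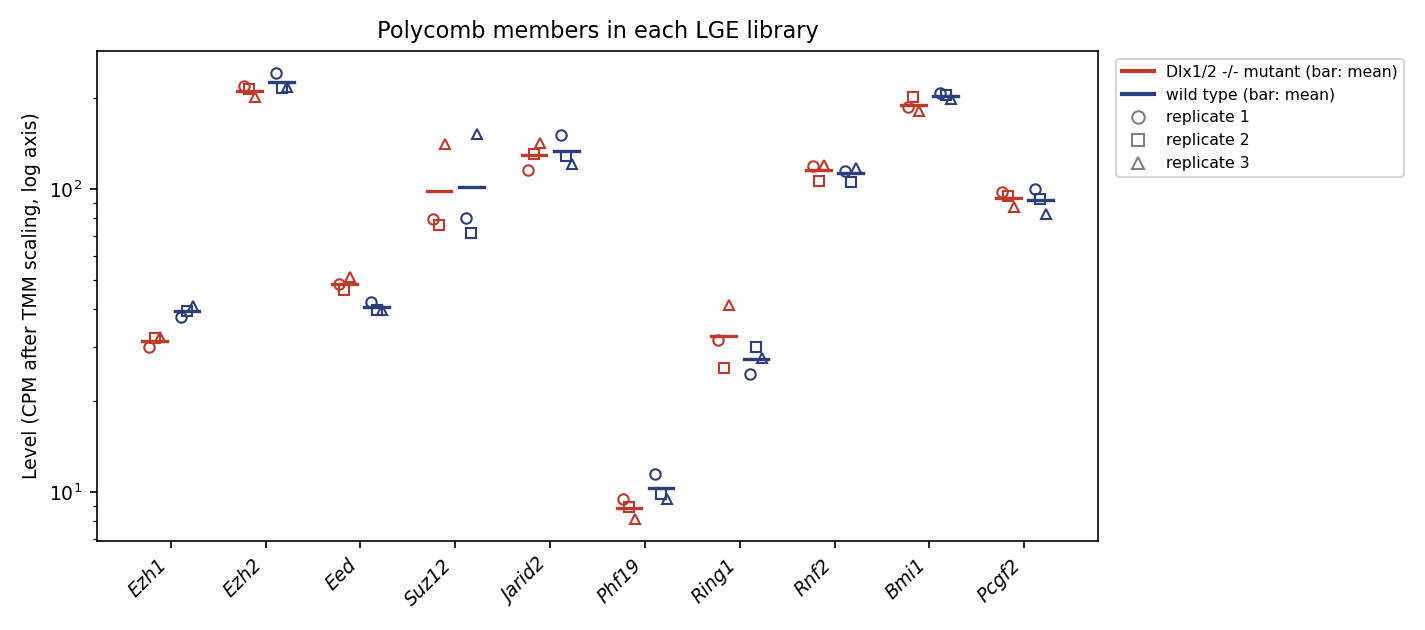
Level of each Polycomb member in each library, in CPM on a log axis, with the mutant left of wild type, a symbol per replicate and a bar for the mean of 3 libraries. Ezh1 is lower and Eed higher in all mutant libraries, and Suz12 is high in replicate 3 of both groups at 140.4 CPM in mutant and 151.8 CPM in wild type.

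The catalytic ring finger genes of PRC1 did not pass the test. Ring1 had 31.6, 25.6 and 41.3 CPM in mutant and 24.6, 30.0 and 27.6 CPM in wild type libraries. Mutant replicates 1 and 3 lay above the wild type range and mutant replicate 2 within it, and a log2 fold change of 0.26 ± 0.17, as large as that of Eed, gave adjusted p = 0.314. Rnf2, which encodes Ring1B, had 119.3, 106.2 and 120.2 CPM in mutant and 114.1, 105.5 and 117.4 CPM in wild type libraries. The log2 fold change was 0.04 ± 0.07 (adjusted p = 0.742), with an interval from 0.92-fold to 1.15-fold. The gene Trmt1l on the opposite strand shares 158 bases of exon with Rnf2, 3.83% of its exon bases.

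Bmi1 and Pcgf2, also known as Mel-18, are alternative Pcgf partners in the canonical PRC1. Bmi1 had 185.4, 201.5 and 180.6 CPM in mutant and 206.3, 204.3 and 197.7 CPM in wild type libraries. Mutant replicate 2 lay within the wild type range and the other 2 mutant libraries below it. The log2 fold change was −0.10 ± 0.05 (adjusted p = 0.214), with an interval from 0.85-fold to 1.02-fold. Pcgf2 had 97.3, 94.5 and 87.2 CPM in mutant and 99.8, 92.8 and 82.6 CPM in wild type libraries, a log2 fold change of 0.02 ± 0.08 (adjusted p = 0.882). Reads of Bmi1 are uncertain in part, since the processed pseudogene Gm5946 on chromosome X is 97.0% identical over 2658 bases. Gm5946 had 194 reads over mutant and 90 over wild type libraries, where Bmi1 had 9097 over mutant and 8578 over wild type libraries. The authors' deposited table gave p-values of 0.146 to 0.896 for the 8 uncalled members. No other member had a transcript of another gene with at least 90% identity over 300 bases.

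**Figure D2:**
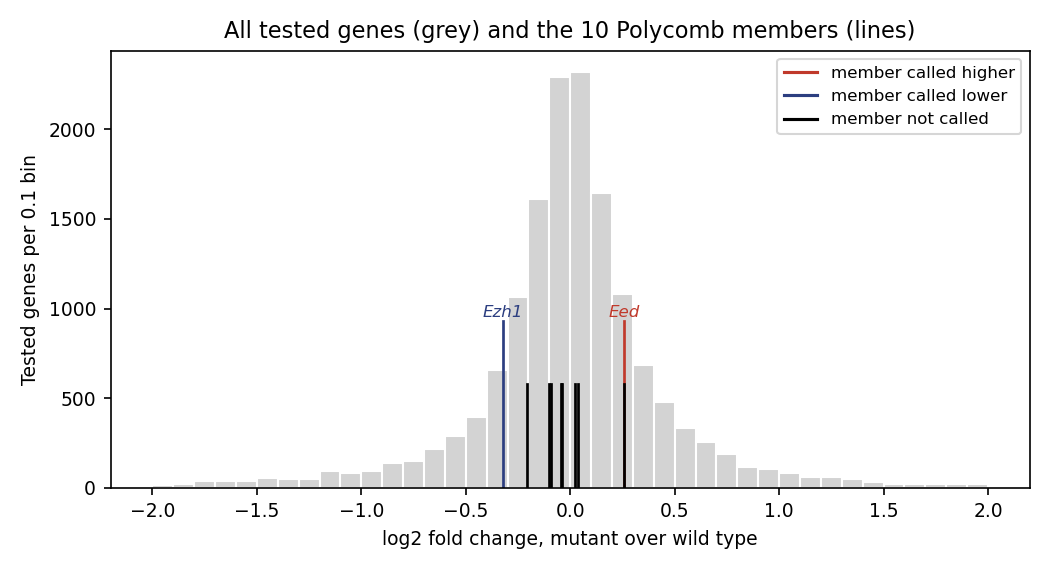
Number of tested genes per 0.1 of log2 fold change (grey, 15001 of 15326 genes lie within the axis) with a line at each of the 10 members, coloured where called. The lines lie between −0.32 (Ezh1) and 0.26 (Eed, with Ring1 on the same place), while 32.2% of all tested genes lie farther from 0 than Ezh1.

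Levels of different genes were compared per length, on the deposited FPKM scale, on which the share of a gene in a library is divided by its length. Bmi1 was the most abundant member, at 29.5 ± 1.79 FPKM in mutant and 31.1 ± 0.50 FPKM in wild type (SD, n = 3 each). Ezh2 followed at 23.4 ± 1.16 FPKM in mutant and 24.5 ± 1.23 FPKM in wild type. Eed (19.4 ± 0.87 in mutant, 15.997 ± 0.30 in wild type), Pcgf2 (17.8 ± 1.10 in mutant, 17.3 ± 1.44 in wild type), Rnf2 (15.7 ± 1.05 in mutant, 15.0 ± 0.81 in wild type) and Suz12 (12.3 ± 4.43 in mutant, 12.4 ± 5.51 in wild type) came next, and in wild type the neighbours in this order lay within 2 SD of each other, as Jarid2 and Ring1 did in the mutant. Below them were Jarid2 (7.78 ± 0.75 in mutant, 7.91 ± 0.80 in wild type), Ring1 (6.66 ± 1.57 in mutant, 5.48 ± 0.60 in wild type), Ezh1 (2.85 ± 0.10 in mutant, 3.51 ± 0.19 in wild type) and Phf19 (1.07 ± 0.09 in mutant, 1.22 ± 0.11 in wild type). The order depends on the length behind the deposited values, which for the members was 0.66 to 1.80 times the merged exon length in GENCODE M21. Per kilobase of merged exons Eed ranked 7th instead of 3rd in the mutant and 7th instead of 4th in wild type, while Bmi1 and Ezh2 stayed at the top and Ezh1 and Phf19 at the bottom.

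The balance of alternative subunits was then taken within each library, where it does not depend on library scaling. The FPKM ratio of Ezh2 to Ezh1 was 8.91, 8.15 and 7.58 in mutant and 7.85, 6.68 and 6.52 in wild type libraries. Mutant ratios were the higher in the mean, but mutant replicate 3 lay below wild type replicate 1. The log2 ratio differed by 0.23 ± 0.11 (SE) between mutant and wild type (two-sided exact permutation test over libraries, p = 0.2, Benjamini-Hochberg adjusted over 3 ratios p = 0.4). The ratio of Rnf2 to Ring1 was 2.52, 2.78 and 1.95 in mutant and 3.11, 2.35 and 2.85 in wild type libraries, a log2 difference of −0.20 ± 0.19 (exact p = 0.4, adjusted p = 0.4). The ratio of Bmi1 to Pcgf2 was 1.55, 1.74 and 1.69 in mutant and 1.69, 1.80 and 1.95 in wild type libraries, a log2 difference of −0.12 ± 0.08 (exact p = 0.3, adjusted p = 0.4). In all 3 ratios the groups overlapped. The smallest p that 3 against 3 libraries allow is 0.1.

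**Figure D3:**
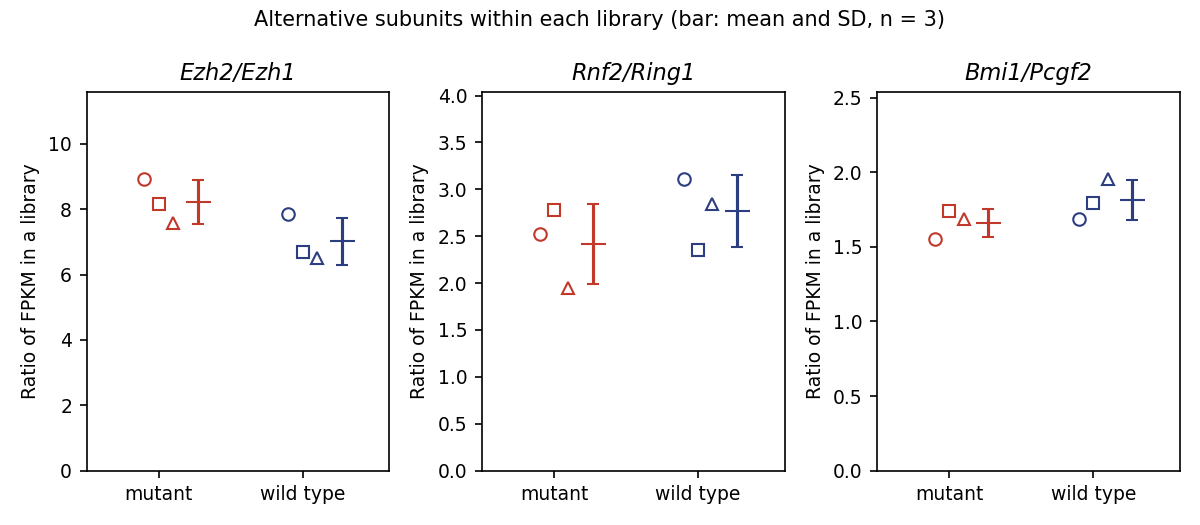
Ratio of deposited FPKM of alternative subunits within each library, with mutant left of wild type, a circle, square and triangle for replicates 1, 2 and 3, and the mean ± SD of 3 libraries as a bar. Ezh2 outweighs Ezh1 by 6.52 to 8.91 times in every library, and the mutant and wild type ratios overlap in each panel.

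The 3 genes whose profile over the 6 libraries was most like that of Ezh1 were Ppp1r13b, Epha7 and Dzip1l, among 8155 tested genes with a mean of at least 20 CPM, leaving out Ezh1 itself and genes with a provisional Gm or Rik symbol. Likeness was the root mean square difference of log2 CPM after centring each gene on its mean, which was 0.016, 0.019 and 0.020. Each fell by 0.31 to 0.32 on the log2 scale, as Ezh1 did. The match was chosen on these same libraries and is a description.

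The other genes of both complexes showed a small number of changes in each direction. Of 28 tested, all of the list, 4 were higher, 2 were lower and 22 did not pass the test. That is 21.4% called, against 24.0% of all tested genes, and the median log2 fold change was −0.07. In PRC2, Epop, an accessory subunit that links the complex to elongin, was the 1 called gene of 6. It had 15.4, 17.7 and 17.2 CPM in mutant and 8.99, 11.1 and 10.6 CPM in wild type libraries, with no overlap and a log2 fold change of 0.70 ± 0.12 (adjusted p = 0.00309, edgeR). The histone-binding subunit Rbbp7 stood at 96.2 ± 2.45 CPM in mutant and 114.2 ± 11.6 CPM in wild type, just outside the threshold (adjusted p = 0.0505).

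In PRC1, 3 of 22 other genes were higher and 2 lower. Auts2, a partner of PRC1 complexes with Pcgf3 or Pcgf5 that is known for a role in brain development, showed the largest change of the called ones. It had 260.3, 276.4 and 303.6 CPM in mutant and 187.6, 180.8 and 168.1 CPM in wild type libraries, a log2 fold change of 0.65 ± 0.07 (adjusted p = 3.39e-04). Cbx2, a chromodomain subunit that reads methylated lysine 27, was higher, at 108.0 ± 5.41 CPM in mutant and 89.8 ± 2.81 CPM in wild type (log2 fold change 0.27 ± 0.06, adjusted p = 0.0130). Its relative Cbx8 rose about as much, at 29.6 ± 2.30 CPM in mutant and 24.6 ± 0.74 CPM in wild type, with no overlap. Its log2 fold change of 0.26 ± 0.08 lay just outside the threshold (adjusted p = 0.0562, edgeR). The relatives Cbx6 and Cbx7 did not pass the test either (log2 fold changes 0.00 and 0.21).

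Kdm2b, Bcor, Bcorl1 and Pcgf1 encode subunits of a variant PRC1 that binds unmethylated CpG islands. Kdm2b, the CpG-binding subunit, was at 159.2 ± 3.91 CPM in mutant and 138.6 ± 3.40 CPM in wild type (log2 fold change 0.20 ± 0.05, adjusted p = 0.0160). The corepressor Bcorl1 had 61.1, 62.1 and 69.4 CPM in mutant and 90.1, 82.1 and 88.5 CPM in wild type libraries, a fall by 0.44 ± 0.07 on the log2 scale (adjusted p = 0.00340). Its relative Bcor was at 171.7 ± 8.14 CPM in mutant and 204.3 ± 15.1 CPM in wild type (log2 fold change −0.25 ± 0.07, adjusted p = 0.0260), and Pcgf1, the ring finger partner in this complex, at 8.77 ± 1.42 CPM in mutant and 9.72 ± 1.28 CPM in wild type (adjusted p = 0.572). The call of Kdm2b was lost without mutant replicate 2, wild type replicate 2 or wild type replicate 3 (adjusted p up to 0.0665), and that of Bcor without mutant replicate 1 or 2 or wild type replicate 1 or 3 (adjusted p up to 0.0898). Both were also lost without replicate 3 of both groups (adjusted p = 0.108 and 0.0933). Epop, Auts2, Bcorl1 and Cbx2 stayed called without any single library, but Cbx2 not without replicate 3 of both groups (adjusted p = 0.0982). Phc3 stood at a pair of levels as Suz12 did, but in other libraries, with 106.9, 32.5 and 27.9 CPM in mutant and 31.9, 99.2 and 29.4 CPM in wild type.

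**Figure D4:**
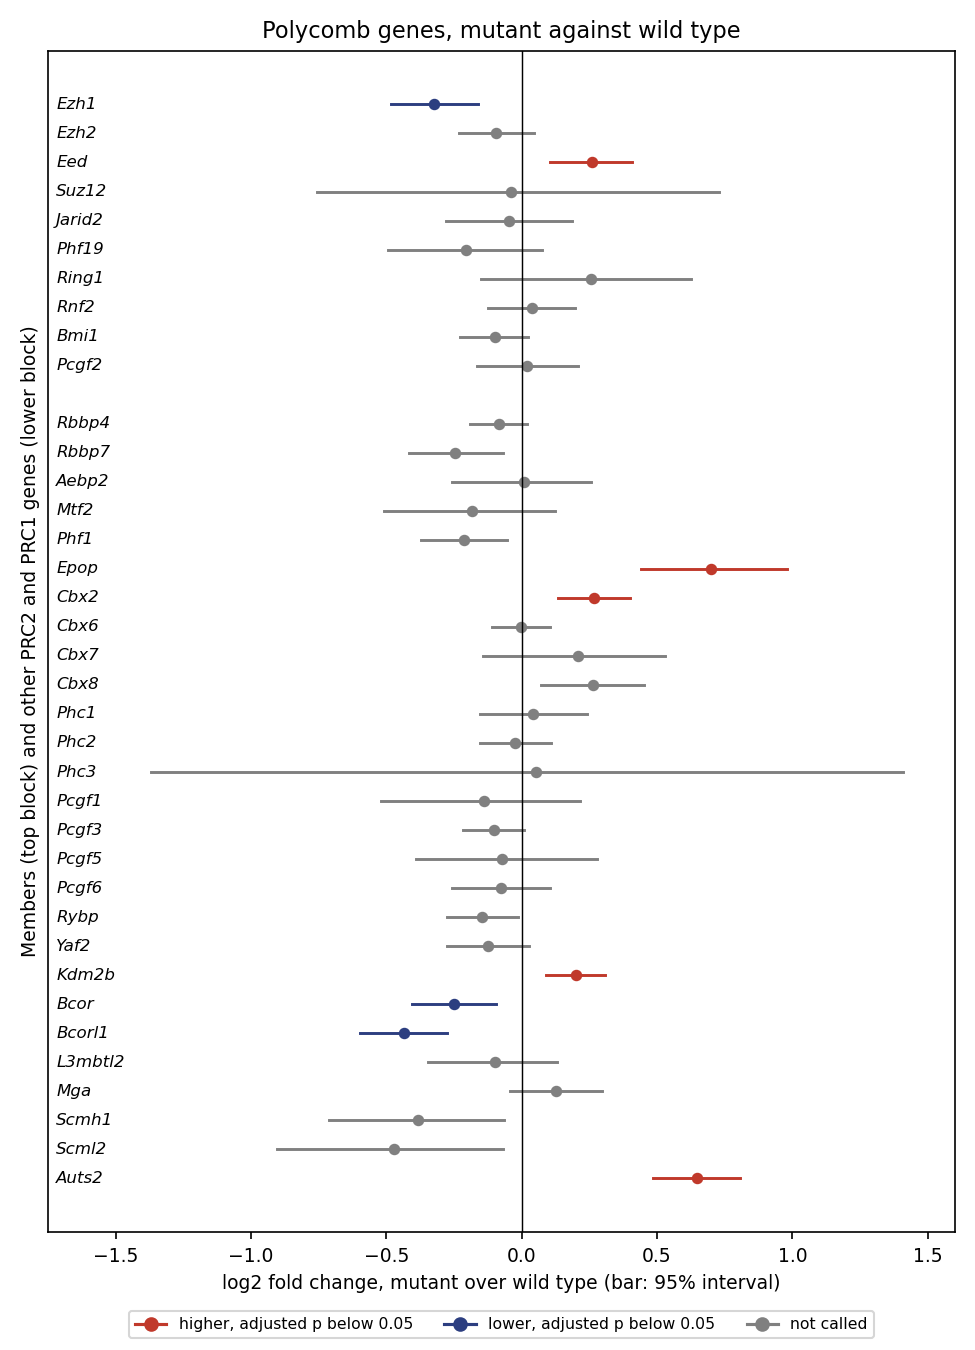
Log2 fold change of mutant over wild type with its 95% interval for the 10 members (top block) and other PRC2 and PRC1 genes, coloured where called. Suz12 and Phc3 have the widest intervals, and Epop (0.70) and Auts2 (0.65) the largest changes among the called genes.

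Enzymes that act against or beside Polycomb were counted in lists of 2 to 12 genes, beside the 24.0% called of all tested genes. With lists this small, a low share called does not show that the genes held their level. Of the 4 genes of the H2A deubiquitinase Bap1 and its Asxl partners none was called, nor were the lysine 27 demethylases Kdm6a and Kdm6b, by edgeR's test at an adjusted p below 0.05. Bap1 was at 144.8 ± 7.17 CPM in mutant and 147.4 ± 2.45 CPM in wild type, and Kdm6b at 359.5 ± 28.2 CPM in mutant and 388.3 ± 9.10 CPM in wild type. Of 12 genes of the Trithorax group and its partners, which write methyl groups on lysine 4 or 36 of histone H3, 1 was higher. It was Ash1l, at 275.1 ± 8.996 CPM in mutant and 235.3 ± 15.2 CPM in wild type (log2 fold change 0.23 ± 0.06, adjusted p = 0.0234), a call lost without any one of 4 libraries (adjusted p up to 0.0897 without mutant replicate 2) or without replicate 3 of both groups (0.0788). None of 7 genes that write or remove DNA methylation was called.

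Families of developmental regulators that hold known Polycomb targets were read next. Whether Polycomb silences them in this tissue was not measured. Some were present in wild type, such as Pax6 at 34.9 ± 5.42 CPM. Of 41 Hox and Evx genes 11 were found in the table, and 1 of them had enough reads for the test. It was Evx2, which sits next to the Hoxd genes and encodes a homeodomain factor, with 8.35, 8.86 and 6.79 CPM in mutant libraries, against 0.10, 0 and 0 CPM in wild type libraries. It had 385 reads over mutant and 1 over wild type libraries, 339 times as many after library scaling (95% counting interval 60.6 to 13441). Hoxd13, its neighbour in the cluster, had 16 reads over mutant and 0 over wild type libraries. With 3 reads over the wild type group taken as the floor, that is 4.70-fold higher after library scaling. The other 9 Hox genes had 0 to 5 reads in a group, the most in Hoxb6 with 5 over mutant and 0 over wild type libraries. Intervals pool the reads of a group and cover counting error only, not differences between libraries. The floor value takes the 16 mutant reads without their counting error.

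Of 9 Pax genes 5 were in the table and 3 were tested. Pax7, known from dorsal midbrain and muscle precursors, had 28.0, 33.2 and 34.3 CPM in mutant and 0.10, 0 and 0 CPM in wild type libraries. Pax5, of the midbrain and hindbrain boundary, had 8.66, 12.4 and 9.81 CPM in mutant and 1.53, 1.82 and 1.21 CPM in wild type libraries (log2 fold change 2.76 ± 0.21, adjusted p = 6.84e-05). Pax6, a patterning factor of the dorsal forebrain, did not pass the test (adjusted p = 0.0856). Pax2 had 5 reads over mutant and 4 over wild type libraries, and Pax8 had 2 over mutant and 3 over wild type libraries. Of 6 Gata genes 4 were in the table and 1 was tested. Gata3 had 24 reads over mutant and 1 over wild type, which is 21.2 times as many after library scaling (counting interval 3.45 to 870). Gata2 was at 1.25 ± 0.19 CPM in mutant and 0.83 ± 0.29 CPM in wild type (adjusted p = 0.243).

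Iroquois and sine oculis homeobox genes (10 of 12 in the table, 7 tested) differed from each other in direction. Irx2 had 3.72, 3.61 and 4.78 CPM in mutant and 0.19, 0.45 and 0.24 CPM in wild type libraries. It had 194 reads over mutant and 13 over wild type libraries, 13.2 times as many after library scaling (counting interval 7.51 to 25.2). Irx1 was at 2.50 ± 0.26 CPM in mutant and 0.91 ± 0.13 CPM in wild type (adjusted p = 0.00279). Six2 had 0.12, 0.13 and 0.25 CPM in mutant and 3.35, 2.27 and 2.29 CPM in wild type libraries, with no overlap. It had 8 reads over mutant and 108 over wild type libraries, 0.065 times as many after library scaling (counting interval 0.027 to 0.133). Six5 rose to 21.7 ± 0.95 CPM in the mutant, against 14.6 ± 0.97 CPM in wild type (adjusted p = 0.00272). Evx2, Pax7 and Irx2 passed the filter on low counts through their mutant reads alone and Six2 through its wild type reads alone, so they had to differ once they passed. No test is given for them, and the counting intervals above, which pool the reads of a group, are not one. The number of calls among tested regulators says nothing of the families as wholes. Of the Ink4 locus, the known target through which Bmi1 controls the cell cycle, Cdkn2a had 6 reads over mutant and 2 over wild type libraries, and Cdkn2b 33 over mutant and 38 over wild type libraries (adjusted p = 0.507).

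**Figure D5:**
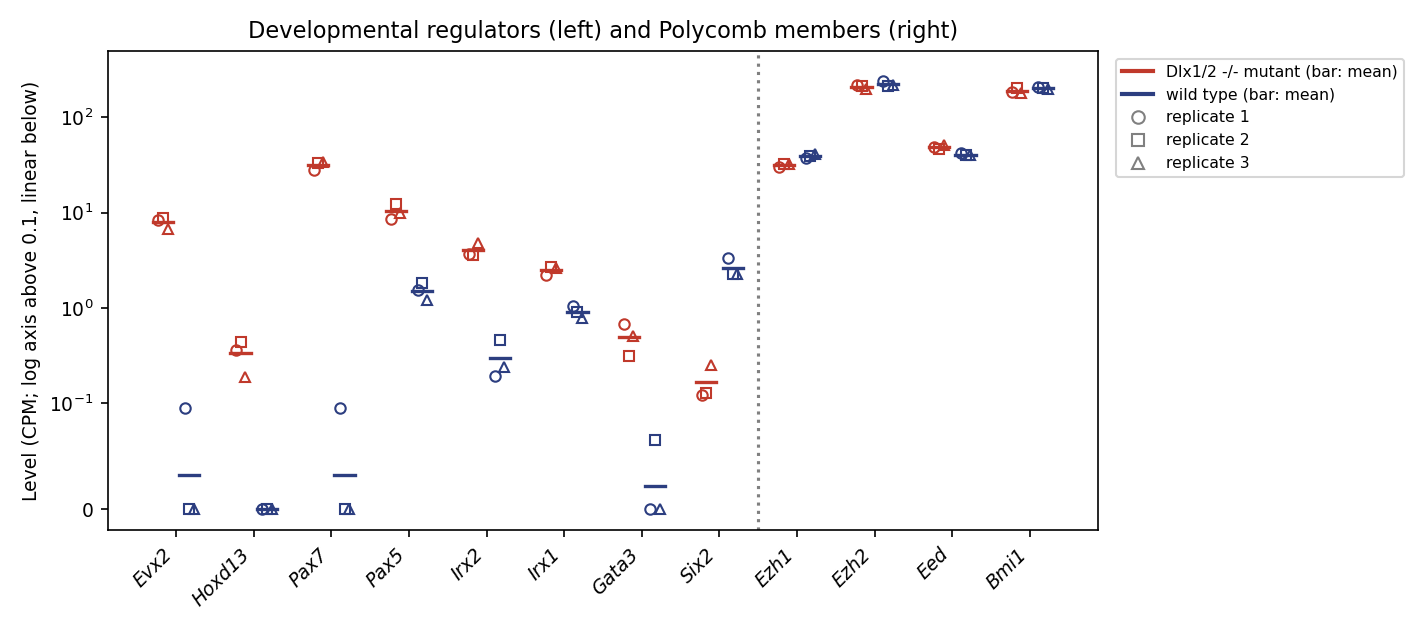
Level in each library of 8 developmental regulators, chosen after their values were seen, and of 4 Polycomb members, in CPM on an axis that is logarithmic above 0.1 and linear below. Evx2 and Pax7 are at 0 to 0.10 CPM in wild type, while the Polycomb members differ by 1.25-fold or less between the group means.

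Marker lists of cell classes differed in how many of their genes were called, against 24.0% of all tested genes. The share was 75% for general neuron markers, 50% each for radial glia and pallial markers and 40% for oligodendrocyte precursor markers. It was below the background for genes of dividing cells (17.6%), red blood cell genes (16.7%), microglia markers (12.5%) and endothelial markers (12.5%). Yet 5 of the 8 microglia markers did not overlap between groups (62.5%, against 41.9% of all tested genes). These were C1qa, C1qb, C1qc, Cx3cr1 and Tyrobp, each above wild type in all mutant libraries, while Aif1, Csf1r and P2ry12 overlapped. The median log2 fold change of the microglia markers was 0.49. Of 10 radial glia markers 5 were higher and 0 lower, with a summed level of 3362 to 3396 CPM in mutant and 2294 to 2579 CPM in wild type libraries. Of 12 general neuron markers 4 were higher and 5 lower, at 5602 to 5845 CPM in mutant and 6309 to 7071 CPM in wild type in sum. Of 17 genes of dividing cells 3 were higher, at 2346 to 2544 CPM in mutant and 2049 to 2647 CPM in wild type in sum, and Mki67 was not called (553.8 ± 23.6 CPM in mutant and 505.7 ± 94.2 CPM in wild type). Of 8 pallial markers 3 of 6 tested were higher, at 127 to 178 CPM in mutant and 49.8 to 92.1 CPM in wild type in sum, while Emx1, which defines the pallium, had 12 reads over mutant and 26 over wild type libraries. Oligodendrocyte precursor markers were higher in 2 of 5 (126 to 143 CPM in mutant, 78.3 to 113 CPM in wild type), microglia markers in 1 of 8 (64.8 to 77.8 CPM in mutant, 50.9 to 60.9 CPM in wild type) and red blood cell genes in 1 of 6 (582 to 778 CPM in mutant, 436 to 644 CPM in wild type), and endothelial markers were lower in 1 of 8 (150 to 156 CPM in mutant, 157 to 174 CPM in wild type). The part of these classes in the changes of Ezh1 and Eed was not tested.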

How the data were processed

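RNA was sequenced from 3 Dlx1/2 -/- mutant and 3 wild type LGE samples. The authors deposited 1 table with whole-number read counts, FPKM values and a p-value per gene, per the file headers, and, per the submitters' processing notes, used HISAT2 (2.0.4), StringTie (1.3.0), edgeR, mm10 and GRCm38.p4, in roles the notes leave out. Not given in the sources used here were counter, annotation release, strand setting, and the test and adjustment behind the deposited p-value. The deposited FPKM of a gene is its count per library total times a constant. All names of wild type libraries share 1 prefix and all mutant names another, so a batch that follows them cannot be told apart from genotype. No 2 libraries agreed within sampling noise (chi-square per degree of freedom at least 7.60).

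From the deposited counts, edgeR 4.0.16 (R 4.3.3) was run with filterByExpr (15326 of 21286 genes), TMM scaling, glmQLFit and glmQLFTest, two-sided, Benjamini-Hochberg over all tested genes. SE and 95% intervals come from limma 3.58.1 (trend), for which 0.5 was the prior count of log2 CPM. Scripts were tested on simulated counts. The 218 entries of 21 gene lists, 180 of them found, and the members were chosen with earlier results of these data known. Named genes were the members, up to 8 called genes per list (or, with none called, the most abundant), the profile neighbours of the member that changed most, E2f1, Mki67, Dlx1 and Dlx2; uncalled list genes, the low-count regulators, copies and antisense partners were named after their values were seen, and the promoter motifs were chosen then too. A gene of the PRC1 list is counted but not reported here by itself. Alternatives were RLE scaling, no filter, DESeq2 1.42.0, the replicate number as a block, leaving out each library and a threshold of 0.01; leaving out replicate 3 of both groups was added after seeing the data.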

Additional observations from a re-analysis of the deposited data

How the results depend on the processing

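Over all genes, 1715 rises and 1958 falls became 875 and 1116 at an adjusted p below 0.01, and 1073 and 1223 without replicate 3 of both groups; leaving out libraries gave 1073 to 1626 rises and 1223 to 1956 falls. Polycomb members called higher numbered 0 with the replicate block, at 0.01 and without replicate 3 of both groups, and 0 to 1 over the fits that leave out libraries. Members called lower numbered 0 at 0.01 and without replicate 3 of both groups, and 0 to 1 when libraries were left out. Other PRC2 and PRC1 genes called higher were 2 with the replicate block, at 0.01 and without replicate 3 of both groups (range 2 to 5 when libraries were left out); those called lower were 4 by DESeq2, 1 at 0.01 and 1 to 3 when libraries were left out. RLE scaling, no filter and DESeq2 kept Ezh1 and Eed as the only called members. Among uncalled members the sign turned only when libraries were left out: Suz12 ranged from −0.387 to 0.3799 (0.03978 without replicate 3 of both groups), Jarid2 from −0.1818 to 0.04277, Rnf2 from −0.008402 to 0.09293 and Pcgf2 from −0.05055 to 0.07981 (−0.002842 without replicate 3 of both groups). The causes were not tested. Same-numbered libraries of the groups deviated together at correlations of −0.179, 0.0446 and −0.172, so the numbers were not taken to pair them; with the replicate block 2681 genes were called (2636 of them shared with the fit without it), Ezh1 kept its call (log2 fold change −0.32, adjusted p = 0.0355) and Eed did not (0.26, adjusted p = 0.0691), nor did Cbx2 (0.0533), Kdm2b (0.0650), Bcor (0.0668) and Ash1l (0.0657). The block cannot change the log2 differences of the 3 subunit ratios (0.23, −0.20 and −0.12), and its smallest possible p is 0.25. Counts in place of FPKM had to give nearly the same differences, since FPKM here is the count per library total times a constant. Neither is a check of these differences. Without single libraries they ran from 0.1683 to 0.312, −0.3146 to −0.05404 and −0.1747 to −0.06942. The intervals of the uncalled members give the precision that 3 libraries a group allow.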
